A study of Homo sapiens with 4 samples.

Results

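Binding of TBX3 was examined at the genes of its own subfamily, TBX2, TBX3, TBX4 and TBX5, in 501mel, an established human melanoma cell line. The members were all peak summits whose deposited nearest gene was one of these 4 genes, at any distance, which gave 18 of 32479 summits in replicate 1 and 17 of 40494 in replicate 2. In both ChIP samples TBX3 carried a triple HA peptide tag (TBX3-3xHA) and was immunoprecipitated with the anti-HA antibody 12CA5 from formaldehyde-fixed, sonicated chromatin. Another 2 samples were input chromatin of the same line and are not analysed here, so no background signal stands beside the summits. The labels used here do not say how the tagged protein was introduced or at what level it was made, name no treatment, and do not say whether the replicates were separate cultures. The lists hold binding and no transcript levels, so whether TBX3 changes the expression of its own gene was not measured.

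T-box factors bind DNA through the T-box domain, which recognises a short element with the core GGTGTGA. TBX2 and TBX3 act mainly as repressors of transcription and are known in melanoma for silencing inhibitors of the cell cycle and the adhesion gene CDH1, while TBX4 and TBX5 act mainly as activators in limb, lung and heart. The 4 genes lie in neighbouring pairs, TBX2 with TBX4 on chromosome 17 and TBX5 with TBX3 on chromosome 12, which arose by duplication of an older pair.

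By the deposited nearest gene, nearly all subfamily summits belonged to TBX3. TBX3 had 17 summits in replicate 1 and 15 in replicate 2 (16.0 ± 1.41, SD, n = 2), TBX4 had 1 in each, TBX2 had 1 in replicate 2 and 0 in replicate 1, and TBX5 had 0 in both. A protein-coding gene named in the lists had a median of 2 summits in either replicate. Of 6955 such genes in replicate 1, 59 (0.848%) had at least as many summits as TBX3, and of 7823 in replicate 2, 130 (1.66%) had. These counts follow the nearest start site, so a gene beside a long stretch without other start sites can collect more summits than a gene in a dense region. Counted instead by position, within the gene or 100 kb of it, TBX3 had 6 summits in replicate 1 and 7 in replicate 2, TBX2 had 9 and 8, TBX4 had 2 and 3, and TBX5 had 0 and 0, so TBX2 then had more than TBX3. Some of these positions count for both TBX2 and TBX4, which lie side by side.

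A summit counted as shared when it and a summit of the other list were each other's nearest and lay within 200 bp. By this rule 13 of the 18 subfamily summits of replicate 1 had a partner (72.2%, 95% Wilson interval 49.1% to 87.5%), against 69.9% of the whole list. In replicate 2 it was 13 of 17 (76.5%, 52.7% to 90.4%), against 56.1% of the whole list. Of the 13 pairs, 12 were at TBX3 and 1 at TBX4. The intervals cover counting error only. They treat summits as independent, although 12 of the 13 pairs were at 1 gene and the same pairs enter both counts. No comparison with the whole list is therefore drawn from them. Recurrence rises with score across each list, and summits drawn at the list's share in the same score deciles would have given 13.0 of 18 in replicate 1 and 12.5 of 17 in replicate 2. The observed 13 and 13 are close to those numbers.

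**Figure D1:**
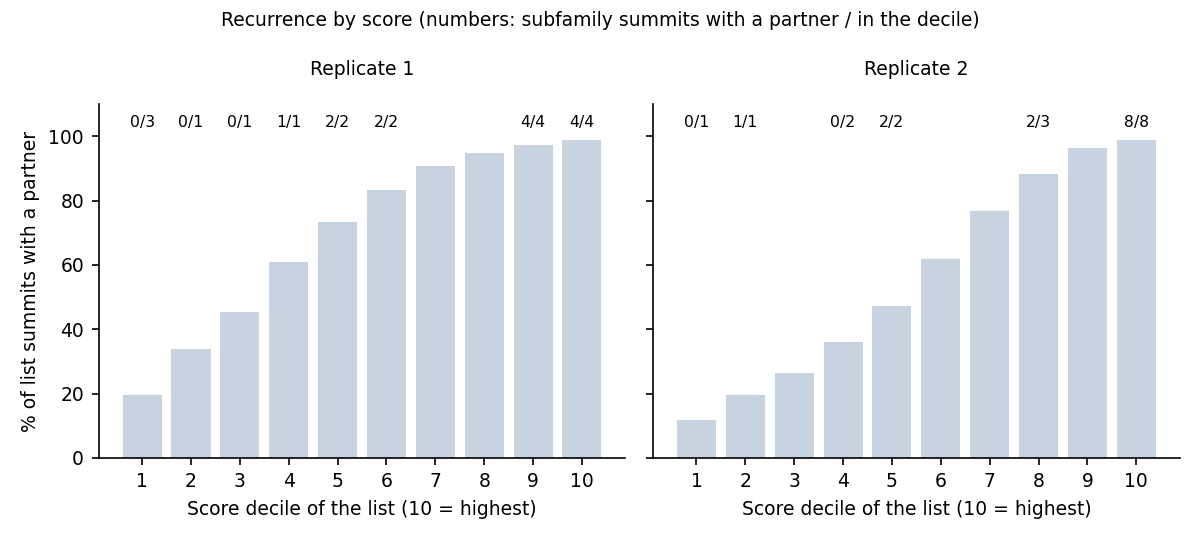
Bars give the percentage of all summits of a list that had a partner within 200 bp, by score decile (x axis, 10 is the highest), in replicate 1 (left) and replicate 2 (right). Numbers above the bars are the subfamily summits with a partner over those in the decile. All 4 and all 8 subfamily summits in the highest decile had one, as did 98.8% and 98.7% of all summits there.

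The TBX3 promoter was the strongest subfamily site in replicate 1 and the one with the lowest sum of ranks over both lists. In replicate 1 the summit lay at position 114684285 of chromosome 12 (hg38), 121 bp upstream of the transcription start site (TSS) at 114684164, with a deposited peak score of 160.2. In replicate 2 it lay at 114684223, 59 bp upstream, with a score of 169.1. The scale of the score is not stated, so values are compared only within a list. The summit exceeded 97.3% of the summits of replicate 1 and 95.9% of those of replicate 2. Among summits of the deposited promoter class it ranked 23 of 756 in replicate 1 and 39 of 857 in replicate 2. A partner was found for 73.7% of all replicate 1 summits within 1 kb of any TSS, and for 66.9% in replicate 2.

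The summits of the TBX3 promoter were 62 bp apart, so the pair was lost when partners had to lie within 50 bp, a rule that 49.9% of replicate 1 and 40.0% of replicate 2 summits met. At that limit 6 of the 18 subfamily summits of replicate 1 and 6 of the 17 of replicate 2 kept a partner. The promoter was also the only TBX3 site within 10 kb of the TSS in either list. A single pair within 10 kb was the usual case, found in 1709 of the 2061 protein-coding genes with any such pair in replicate 1.

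The remaining TBX3 summits, 16 in replicate 1 and 14 in replicate 2, were all upstream of the gene and all intergenic in the deposited annotation. None lay in the TBX3 gene itself (114670255 to 114684175 on chromosome 12 in GRCh38.p14). They formed 11 distal pairs, from 27.7 kb to 691 kb upstream.

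The strongest distal pair of the near region lay 85.6 kb upstream, at 114769780 in the replicate 1 list and 114769829 in the replicate 2 list. Its scores were 114.1 and 188.9, ranks 1609 and 1401, and it exceeded 94.99% and 96.54% of the lists. A neighbouring pair at 80.6 kb scored 41.3 and 101.3, a pair at 27.7 kb scored 46.2 and 90.4, and a pair at 95.3 kb scored 10.8 and 11.4. The near region therefore held 4 distal pairs, of which the pair at 95.3 kb was the only one below a percentile of 80 in either list, at percentiles of 42.8 and 42.6.

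A second group of 5 pairs lay between 199 kb and 311 kb upstream. The pair at 271 kb had summits at 114954776 and 114954834, scores of 54.3 and 126.7 and percentiles of 86.3 and 93.7. The pair at 255 kb had scores of 51.5 and 123.7 and percentiles of 85.6 and 93.5. The other three were weaker, with scores of 16.8 and 36.8 at 269 kb, 10.82 and 30.04 at 311 kb, and 15.8 and 11.5 at 199 kb. Within this group the pairs at 269 and 271 kb were the closest neighbours among all TBX3 pairs, 1746 bp apart.

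The last group stood far from the gene, after a stretch of 346751 bp without a shared summit. The pair at 657 kb had summits at 115341650 and 115341632, scores of 105.7 and 193.3, ranks 1838 and 1341, and percentiles of 94.3 and 96.7. It had the highest score of any TBX3 summit in replicate 2. The pair at 691 kb was the weakest of all, with scores of 8.54 and 4.76 and percentiles of 33.2 and 11.9.

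**Figure D2:**
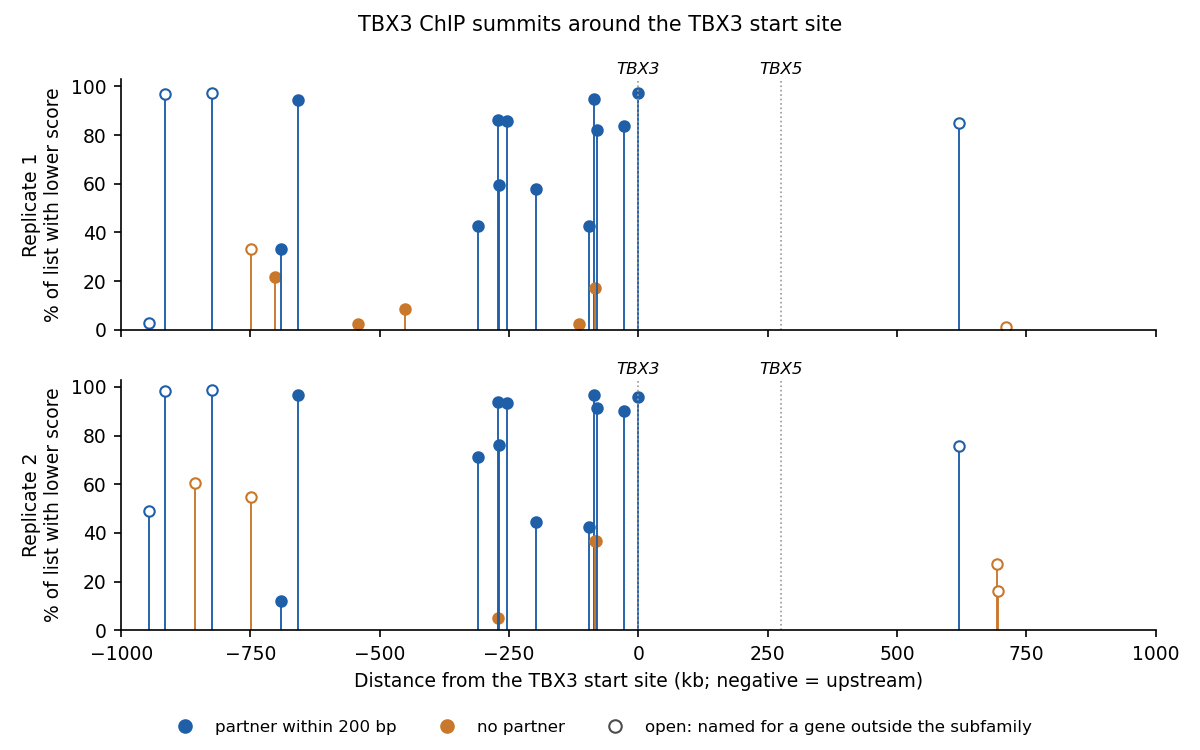
Each stem is a summit at its distance in kb from the TBX3 start site (x axis, negative is upstream) and its height is the percentage of its own list with a lower score (y axis), for replicate 1 (top) and replicate 2 (bottom). Blue stems had a partner and orange stems had none, and open circles were named for other genes. Summits stand upstream of TBX3 and at its promoter, and none stands between TBX3 and TBX5 or at TBX5 in either list.

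The order of the TBX3 sites was alike in both lists. Across the 12 pairs, Spearman's rho of the score ranks was 0.95, beside 0.85 over all 22702 pairs of the series, and the points share the 2 libraries, so no p-value was attached. The median percentile of the paired TBX3 summits was 82.8 in replicate 1 and 90.8 in replicate 2, against 63.1 and 70.3 for all paired summits. The TBX3 pairs stood higher in replicate 2 than in replicate 1 in 8 of 12 cases, and the promoter was among the 4 that stood lower. The median over all pairs was also higher in replicate 2, 70.3 against 63.1. The share of all pairs that stood higher is not given here, so 8 of 12 is not a trait of TBX3. Of all TBX3 summits, 3 of 17 (17.6%) in replicate 1 and 7 of 15 (46.7%) in replicate 2 were above the 90th percentile of their list.

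**Figure D3:**
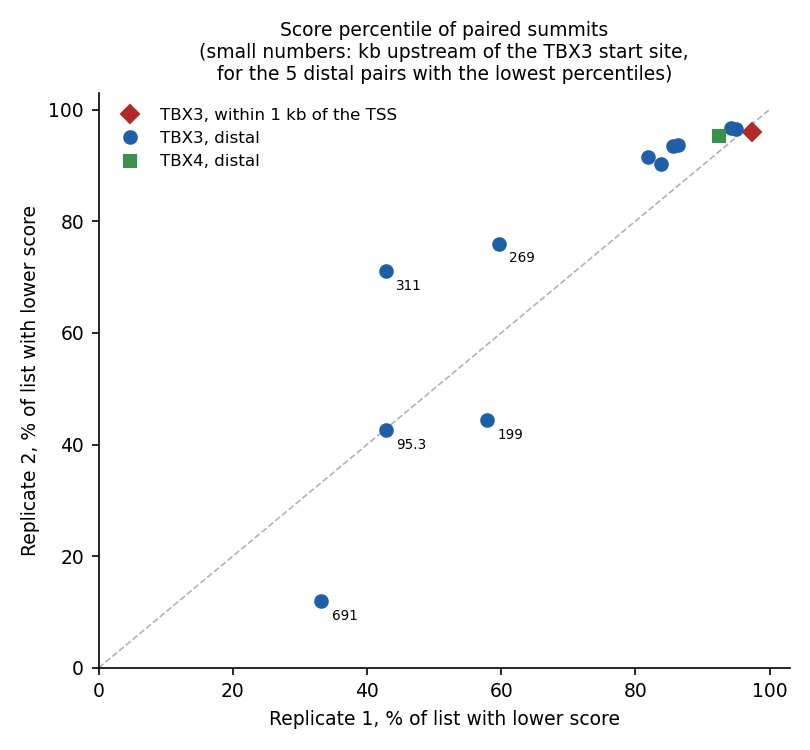
Each point is a pair of summits, plotted by the percentage of the list with a lower score in replicate 1 (x axis) and in replicate 2 (y axis), and the dashed line marks equal percentiles. The TBX3 promoter (red diamond) and 6 distal TBX3 pairs lie above 80 on both axes, as does the TBX4 pair (green square), and 5 distal TBX3 pairs lie lower.

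TBX3 summits without a partner were weak ones. The 5 in replicate 1 had scores from 3.08 to 6.43, at percentiles of 2.49 to 21.5, and the 3 in replicate 2 had scores from 3.68 to 9.45, at percentiles of 5.07 to 36.6. The nearest summit of the other list was 799 bp away or more for each of them, while the widest pair, at 311 kb, was 110 bp apart, so no TBX3 summit fell near the 200 bp limit. In replicate 2 the summits at 82.1 and 83.1 kb lay between the pairs at 80.6 and 85.6 kb, where replicate 1 had a different weak summit at 83.9 kb.

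Few subfamily summits overlapped annotated repeats, 1 of 18 in replicate 1 (5.56%) and 3 of 17 in replicate 2 (17.6%), against 43.3% of each whole list. The paired summits were not always in the same class. The pair at 85.6 kb was outside repeats in replicate 1 and in a MIR3 SINE in replicate 2, and the pair at 199 kb was outside repeats in replicate 1 and in a simple repeat in replicate 2. The RefSeq gene table of GRCh38.p14 places long non-coding RNA genes over 6 of the 11 distal pairs that the deposited annotation calls intergenic. The share of all intergenic pairs under such genes is not given here, so 6 of 11 cannot be called high or low. TBX3-AS1 (114682292 to 114767988) spans the promoter summits and the pairs at 27.7 and 80.6 kb. LOC124903080 (114948160 to 114969861) spans those at 269 and 271 kb, LOC124903082 the one at 657 kb and LOC105370003 the one at 691 kb. No summit carried the name TBX3-AS1 in the deposited lists.

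The stretch upstream of TBX3 was rich in summits and the stretch on the other side held few. In the 1 Mb upstream of the TSS, replicate 1 had 21 summits and replicate 2 had 20, counting those named for other genes. Tiles of 1 Mb over chromosomes 1 to 22 and X had a median of 7 summits in replicate 1 and 9 in replicate 2, and 89.5% and 82.2% of them held fewer than the TBX3 upstream stretch. In the 1 Mb on the other side, which contains TBX5, there were 2 summits in replicate 1 and 3 in replicate 2, and 21.8% and 20.4% of tiles held as few or fewer.

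The assignment by nearest start site ended the TBX3 set in the middle of this stretch. The farthest TBX3 summit lay 702 kb upstream, and the next, 749 kb upstream, was named for the microRNA gene MIR620, which lies within MED13L. Beyond it were strong pairs named for MIR620, at 824 kb (scores 159.0 and 305.8, ranks 880 and 554) and at 915 kb (146.7 and 265.8, ranks 1038 and 743). Both ranked above every distal TBX3 pair in their list. Which gene, if any, these sites act on was not measured.

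TBX5, a cardiac and limb factor whose loss causes Holt-Oram syndrome, had no summit. Its gene spans 114353911 to 114408442 on chromosome 12 in GRCh38.p14, and no summit of either list lay in this span or within 100 kb of it. The empty interval over TBX5 ran from a summit named for RBM19 at 114064242 to the TBX3 promoter summit at 114684223 in replicate 2, 620 kb, and to 114684285 in replicate 1 from 114064178. In replicate 1, 720 of 31894 intervals between neighbouring summits (2.26%) were at least as long, and in replicate 2, 551 of 39846 (1.38%). With both lists merged it was 475 of 71478 (0.665%), where the short intervals between paired summits are counted too. These shares count intervals and not their length, so they are lower than the share of the genome that such intervals cover. No read depth was available, so an unbound TBX5 locus cannot be told apart from binding too weak to be called.

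TBX2, the closest relative of TBX3 and a known target of MITF in melanocytes, had a single summit, in replicate 2 only. It lay at 61399842 on chromosome 17, 54 bp upstream of the TSS by the deposited distance and 1 bp before the start of the gene in RefSeq (61399843 to 61409466). Its deposited class was the promoter of a transcript of TBX2-AS1, the antisense gene. The span of TBX2-AS1 (61393456 to 61399606) has its nearer edge 236 bp away, so the site cannot be given to either gene alone. The score was 28.6, which exceeded 70.1% of the list, and it ranked 405 of 857 in the promoter class. Of the replicate 2 summits in its score decile 88.4% had a partner, but the nearest replicate 1 summit was 35584 bp away. Binding at the TBX2 promoter therefore rests on replicate 2 alone.

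Strong summits lay farther upstream of TBX2 under another name. The deposited lists named 21 summits of replicate 1 and 18 of replicate 2 for LOC101927855, a long non-coding RNA gene at 61361668 to 61367704, and they formed 14 pairs. All lay within the span of BCAS3, the neighbouring protein-coding gene, from 35.6 kb to 271 kb upstream of TBX2. The strongest in replicate 1 was 77.0 kb upstream of TBX2, with summits at 61322944 and 61322982, scores of 357.5 and 317.8 and ranks of 146 and 506. Another at 190 kb scored 219.6 and 351.2, ranks 463 and 384. Each of these ranked above every site of the subfamily genes. Summits named for LOC101927855 made up most of the 9 and 8 within 100 kb of TBX2, of which 5 were paired in each list. Those 5 include the TBX4 pair described next.

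TBX4, a factor of hindlimb and lung development, had 1 pair. Its summits lay at 61486370 and 61486372 on chromosome 17, 29.9 kb downstream of the TSS at 61456488 and 1260 bp beyond the end of the gene (61452422 to 61485110). The scores were 88.0 in replicate 1 and 155.7 in replicate 2, at percentiles of 92.5 and 95.3. The summits were 2 bp apart and in no annotated repeat. No summit lay in the gene or at its promoter in either list.

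**Figure D4:**
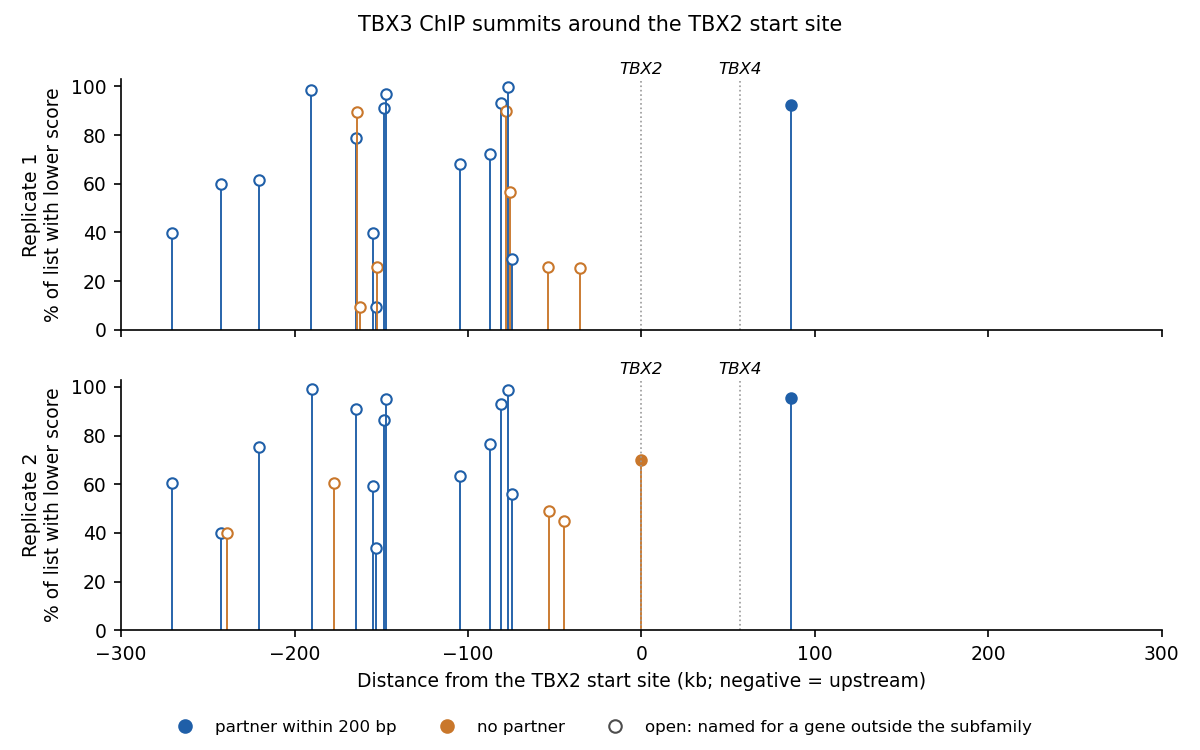
Stems show summits by distance in kb from the TBX2 start site (x axis, negative is upstream) and by the percentage of the list with a lower score (y axis), for replicate 1 (top) and replicate 2 (bottom), coloured as blue with a partner and orange without. Open circles upstream were named for LOC101927855, the filled orange point at 0 in replicate 2 is the TBX2 promoter summit, and the filled blue point 86.5 kb downstream is the TBX4 pair.

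The promoters of TBX4 and TBX5 could be read from the RefSeq promoter table (GRCh38.p14, 250 bases before to 50 after each start), with 1 entry for TBX4 and 2 for TBX5, and TBX2 and TBX3 were not searched here. The core GGTGTGA, on either strand, was in 0 of these 3 and in 1211 of all 35116 promoters (3.45%). The shorter GGTGTG was in the TBX4 promoter and in 16.8% of all. It is shown because it is the single match in a promoter without a summit, with the match in capitals, as CACACC on the strand printed, beginning 245 bases before the start, at chr17:61456238-61456260 on the plus strand. GGTGTG is the first part of the longer core, which this sequence does not hold, and a match is no evidence of binding.
TBX4: aacccCACACCcaggggcaggca

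Other T-box genes had few summits. The 13 other genes of the family together had 11 summits in replicate 1 and 17 in replicate 2, from 7 genes and 9 genes, and 9 pairs over 7 genes. TBX15, a limb and skeletal factor, had 3 pairs, with 4 summits in replicate 1 and 7 in replicate 2. TBXT, TBX18, TBX22, TBR1, EOMES and MGA had 1 pair each. TBX1, TBX6, TBX10 and TBX20 had no summit in either list. None of the 13 had a summit within 1 kb of its TSS. TBXT, the notochord factor brachyury, was the one with a pair within 10 kb, 4.8 kb from its TSS, with scores of 26.7 and 34.9.

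**Figure D5:**
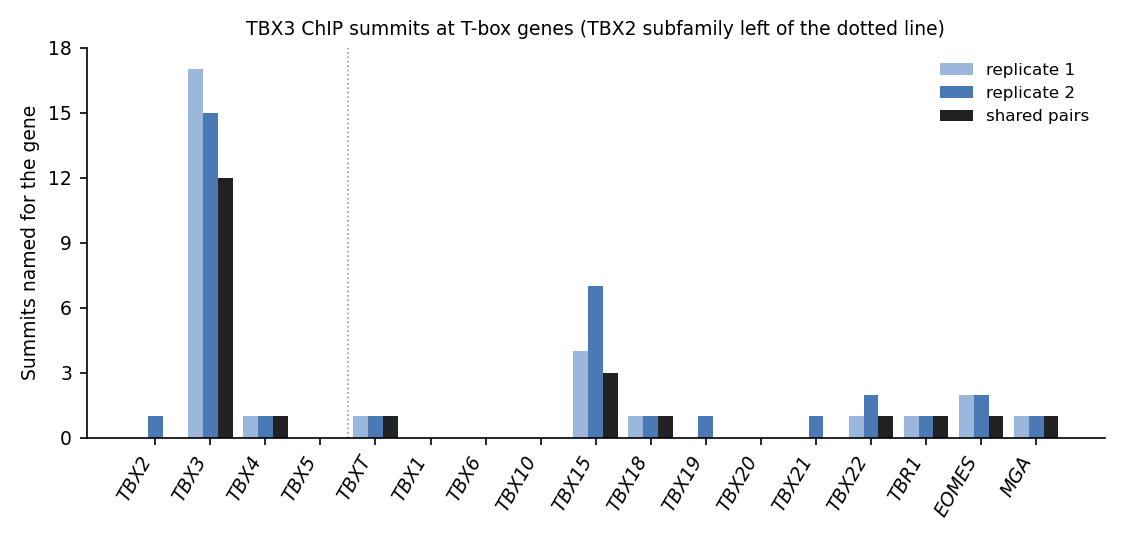
Bars give the summits named for each T-box gene in replicate 1 (light blue) and replicate 2 (blue), and the pairs found in both (black). TBX3 stands at 17, 15 and 12, and the next is TBX15 with 4, 7 and 3.

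A promoter pair together with many further pairs was found at few genes. Of the 608 protein-coding genes with a paired summit within 1 kb of a TSS in replicate 1, 15 (2.47%), TBX3 included, had at least 12 paired summits in all. In replicate 2 it was 16 of 610 (2.62%). The limit of 12 is the number at TBX3 itself, counted by nearest start site at any distance, so these shares depend on that assignment. Within the gene or 100 kb of it, TBX3 had 5 paired summits in each list, as did TBX2. Over all protein-coding genes with any paired summit, at a promoter or not, 55 of 5841 (0.942%) in replicate 1 had at least 12. In replicate 2 it was 55 of 5845 (0.941%), and the median was 1 paired summit in either list.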

How the data were processed

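Peak lists of 2 TBX3-3xHA ChIP samples were analysed, grouped by sample title. Each was made from a single sample's summits with annotatePeaks.pl (HOMER) against hg38, per the file headers. The submitters' processing notes name Bowtie2 2.3.5, MACS2 2.1.2, cutadapt 2.8, FastQC 0.11.7 and SAMtools 1.9 without their roles, and the control and threshold are not given in the sources used here. The authors' deposited peak score has no stated scale and was used only as a rank or percentile within its list. Positions, distances, classes, repeats and gene names are as deposited. Read depth is unknown.

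Summits were paired as mutual nearest neighbours within 200 bp (pandas 2.3.3, numpy 2.4.6), a step tested on simulated data. The planned overlap of intervals does not apply to summits of 1 base. Gene spans came from RefSeq, GRCh38.p14. Every summit within 10 kb of a member and the 3 best pairs of each were given singly, and weaker pairs were added after their values were seen. Motif windows around summits were not run, because no genome was used here. No test was made, since there was 1 ChIP condition. The members and lists were chosen with earlier results of these data known. Alternatives covered pairing distance, score limits, gene assignment, promoter distance, motif and replicates.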

Additional observations from a re-analysis of the deposited data

How the results depend on the processing

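Of 63 alternatives 44 kept the value, counts within 1.5 times. Some of these could not move, such as the score limits for TBX5, which had 0 summits. The same holds for adding antisense genes, which had 0 summits in either list, and for adding MIR620 summits to TBX3 where another gene was counted. The mean of 17.5 subfamily summits fell to 10.5 at or above the median score of each list and to 7 among the 5000 highest scores, and leaving out a replicate gave 17 to 18. The share with a partner in replicate 1 was 33.3% within 50 bp, 0% at the same base, 90% at or above the median score and 100% among the 5000 highest. In replicate 2 the same settings gave 35.3%, 0%, 81.8% and 75% (6 of 8). The score limits held for both lists, so a summit also lost its partner when the partner fell below the limit. All 8 had a partner in the full lists. The pairs at 27.7 and 80.6 kb were lost because their replicate 1 summits ranked 5187 and 5885. At the median score the pair at 199 kb was lost from replicate 1 and the pair at 311 kb from replicate 2 in the same way. The promoter pair of TBX3 was lost within 50 bp (0 pairs) and at the same base (0 pairs). The shorter motif raised the subfamily promoters with a match from 0 to 1. These settings keep fewer summits, narrower pairs or shorter letters. For single genes, the mean for TBX3 moved from 16 to 9 at or above the median score, 6 among the 5000 highest and 6.5 by gene span plus 100 kb. For TBX2 it moved from 0.5 to 0 among the 5000 highest and 8.5 by gene span, and to 1 and 0 without replicate 1 and 2. For TBX4 it moved from 1 to 2.5 by gene span. The gene span changes come from assigning summits by position. Adding MIR620 summits to TBX3 and leaving out repeats were chosen after seeing the data. Recurrence has no value without a replicate, and windows of 50 and 150 bases around summits were not run. No paired analysis was possible because the input samples, which share the replicate numbers, were not analysed here.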

Other observations

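The median separation was 59.5 bp over the 12 TBX3 pairs, from 1 to 110 bp, and 28 bp over all 22702 pairs. Of the TBX3 pairs 5 lay within 50 bp, and 71.4% of all pairs did. The replicate 2 summit had the higher coordinate in 10 of the 12 TBX3 pairs and in 50.2% of all pairs. These values were chosen after they were seen, and neither the differences nor a cause was tested.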
